A study of Mus musculus with 60 samples.

Results

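Mouse cancer-associated fibroblasts (CAFs), the activated fibroblasts of tumours, were profiled by bulk RNA sequencing without cancer cells in 2 culture formats, and gene expression was compared between the formats. The labels call the cells tCAFs and do not explain the prefix. In the first format the CAFs were grown as multicellular aggregates, with 3 replicates whose titles carry the tag CAF-GFP. In the second they were grown in a Boyden chamber, a well with a porous membrane, with 5 replicates that were each sequenced as 3 technical libraries. The comparison therefore used 18 of the 60 libraries of the series, or 8 of its 30 biological replicates, which were assigned to their groups by their labels. Before lysis the cells of both formats went through flow sorting to enrich the CAFs, by an extraction protocol shared by all samples, whose library step is given as sonication and ligation. The labels give no strain, age, passage or culture time, and do not say whether the replicates came from separate animals. The p-values therefore measure the spread between these replicates.

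Format and experiment are confounded here. All aggregate libraries belong to 1 deposited table and all Boyden libraries to another, and no library links them. A difference between the formats and a difference between the experiments (cells, day, library making, sequencing, counting) cannot be told apart, and "higher in the aggregates" below states only which set of libraries had the higher value.

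Fibroblasts that spread on a stiff flat surface assemble contractile actin bundles. This releases the cofactors of serum response factor (SRF) and the regulator YAP to the nucleus, where they switch on genes for smooth muscle actin and other cytoskeletal proteins. Cells packed in an aggregate have less surface to spread on, and fibroblasts in such bodies are known to leave the cell cycle. Immediate early genes encode transcription factors that are made within minutes of a stimulus without new protein, and cell handling is 1 such stimulus.

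The aggregate replicates held 757717 to 1135567 counts and the summed Boyden replicates 6734110 to 8542262. Mitochondrial genes (mt- symbols) and the rRNA-like genes Gm42418 and Gm26917, 39 genes in all, were left out before scaling, because they took such different shares of the formats. The rRNA-like genes held 22.5% to 23.1% of aggregate counts and 0.0244% to 0.0521% of Boyden counts, and the mitochondrial genes 19.0% to 21.2% and 10.8% to 13.5%. After that, 433211 to 657982 counts remained per aggregate replicate, so 1 read stood for 1.43 to 2.10 CPM (counts scaled to the library total). Small noncoding RNAs made up 6.10% to 6.30% of the remaining aggregate counts and 1.10% to 1.21% of the Boyden counts. Ribosomal protein genes made up 0.660% to 0.696% and 3.46% to 4.20%. The formats did not overlap in any of these shares.

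**Figure D1:**
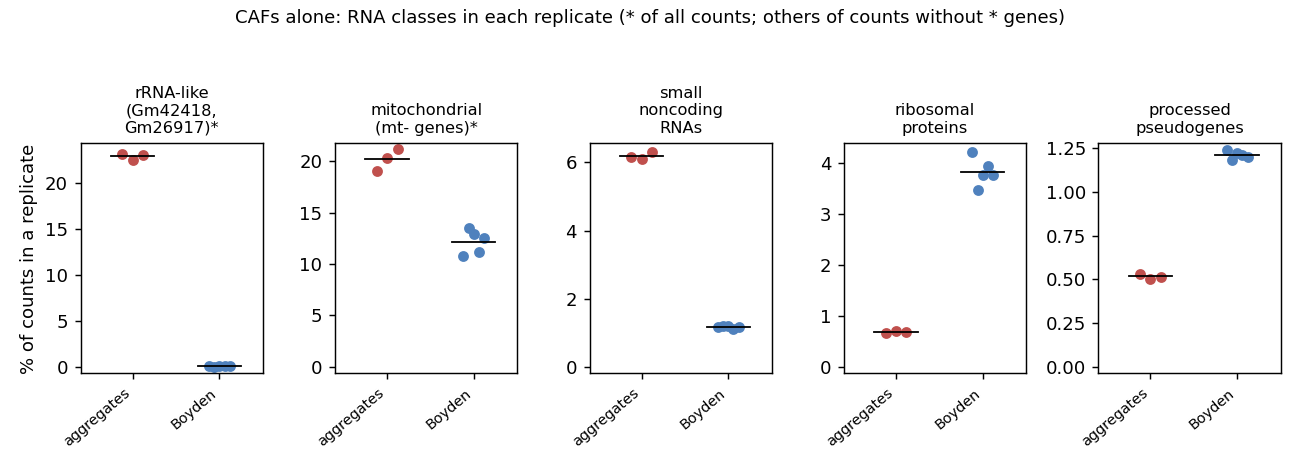
Share of counts (percent, vertical axes) taken by 5 RNA classes in each replicate of CAFs alone, with aggregates in red (3 points), the Boyden chamber in blue (5 points) and the mean as a line. The rRNA-like genes stand at 22.5% to 23.1% in the aggregates and at 0.0244% to 0.0521% in the Boyden chamber, and in all 5 classes the formats do not overlap.

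Of 14659 genes that passed the filter on low counts, 4120 (28.1%) were called higher in the aggregates and 5496 (37.5%) lower, where called means an adjusted p under 0.05 in edgeR's quasi-likelihood test. In total 9616 genes (65.6%) were called. With a difference of at least 2-fold added, 2830 (19.3%) were higher and 4188 (28.6%) lower, 47.9% together. In 65.9% of the genes tested, the 3 aggregate and 5 Boyden values did not overlap. These shares are the background against which each gene group below is read. The median log2 difference of all genes tested was -0.25 (aggregates minus Boyden chamber, as throughout). A log2 difference of a single gene is given ± a standard error (SE), derived as its absolute value over the square root of the test's F statistic. For values near 0, or where a group had 0 counts, this SE is unreliable as a measure of precision. Total-count and upper-quartile scaling moved that median to -0.07 and -0.05, so differences of about 0.2 on the log2 scale depend on the scaling. The biological coefficient of variation, the spread between replicates beyond counting error, was 8.85%, or 14.9% among the aggregates and 8.34% among the Boyden replicates.

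The size of a difference went with the composition and length of the gene. Among protein-coding genes split into 5 equal classes by the GC content of their exons, the median log2 difference ran from -0.66 in the class with the lowest GC to 0.62 in the class with the highest. In 5 classes by summed exon length it ran from -1.10 in the shortest genes to 0.15 in the longest. Processed pseudogenes had a median of -2.11 (989 genes), while small nucleolar RNAs had 6.88 (45 genes). Protein-coding genes that overlap an exon on the other strand numbered 3763 (31.7% of those tested) and had a median of -0.05, against -0.27 for the rest. The part of these properties in the results below was not tested as a cause. Values with the length and GC trends taken out, or over the 6582 protein-coding genes with no such overlap and under 5% of their 31-base words shared with other genes, are given beside many of the results. Both were chosen after seeing the data. Of the genes described below, Adamts4, Axin2, Cdkn1a, Col15a1, Crim1, Ctgf, Has2, Hmgcs1, Igfbp7, Lef1, Lox, Pdgfa, Pdgfra, Psph, Runx2, Stc1, Tgfb2, Tnxb and Vcl overlap an exon on the other strand, and their counts are less certain.

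**Figure D2:**
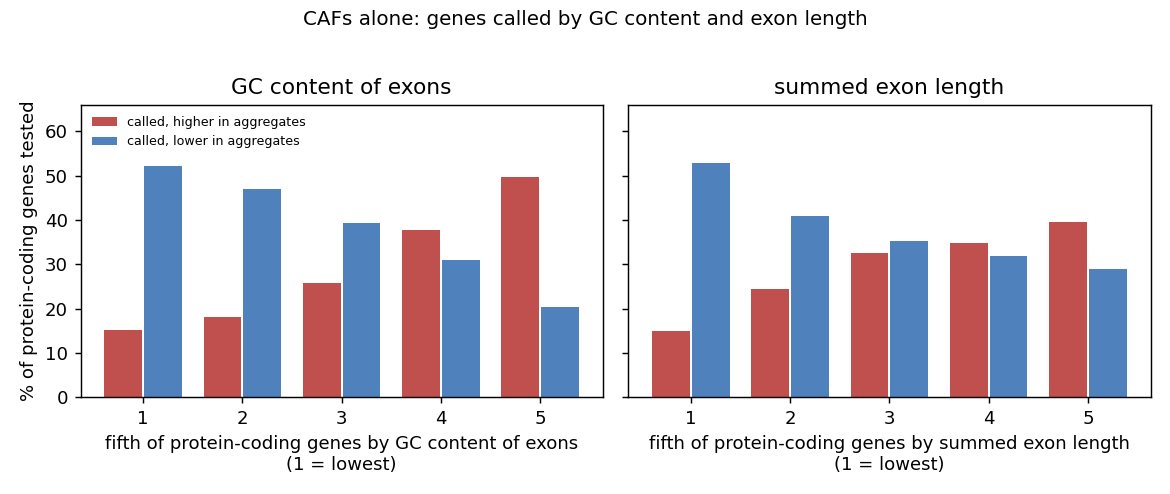
Percent of protein-coding genes tested (vertical axis) that were called higher (red) or lower (blue) in the aggregates, in 5 equal classes by exon GC content (left) and by summed exon length (right, horizontal axes, 1 is the lowest class). The share called higher goes from 15.1% to 49.6% along GC content and from 14.9% to 39.6% along length, while the share called lower goes from 52.2% to 20.4% and from 52.8% to 28.9%.

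The cells of both formats carried fibroblast RNA. The summed level of 16 fibroblast markers was 33450 to 39100 CPM in the aggregates and 31850 to 34190 CPM in the Boyden chamber (scaled by total counts), mostly from fibronectin and collagens. Of 15 such markers tested, 6 were higher and 5 lower, with a median log2 difference of 0.04. Lum, a proteoglycan gene named after its values were seen, had 0 counts in the aggregates and at most 1.56 CPM in the Boyden chamber. Pdgfra, a receptor for platelet-derived growth factor and a marker of quiescent and inflammatory fibroblasts, measured 1166, 581 and 601 CPM in the aggregates and 161, 157, 151, 147 and 166 CPM in the Boyden chamber. All aggregate values were above all Boyden values, and the first aggregate replicate was the highest. The log2 difference was 2.34 ± 0.13 (SE, adjusted p = 1.25e-16). Vim, which encodes the intermediate filament vimentin, went the other way, with 633 ± 105 CPM against 2536 ± 65.5 CPM (mean ± SD, n = 3 and 5) and a log2 difference of -2.0 ± 0.11 (SE, adjusted p = 2.26e-17). Fap, fibroblast activation protein, was low in both formats but higher in the aggregates, at 15.7, 8.42 and 20.4 CPM against 1.61, 1.48, 1.84, 2.98 and 2.55 CPM.

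Markers of the mesothelium, the lining of body cavities, were found in the Boyden replicates and were low or at 0 in the aggregates. Upk1b, a uroplakin gene of mesothelial and urothelial cells (ENSMUSG00000049436.4, GRCm38 chromosome 16, 38773184 to 38800328), had 0 counts in all 3 aggregate replicates and 219.6, 207, 231, 185 and 206 CPM in the Boyden replicates. This is at least 123-fold lower in the aggregates, taking 3 counts over the group as the floor. Lrrn4, a leucine-rich repeat gene of mesothelium, measured 1.43, 2.10 and 3.39 CPM against 258, 256, 211, 182 and 246 CPM, and its log2 difference was -6.65 ± 0.33 (SE, adjusted p = 2.47e-18). Upk3b had 1 count in each aggregate replicate and 105, 77.6, 92.3, 76.7 and 97.5 CPM in the Boyden chamber, a ratio of 52.7 (95% exact Poisson interval, 18.02 to 255). In these 3 genes every Boyden value was far above every aggregate value. Of the 6 mesothelial markers, 5 were lower and Krt19 was not called (2.92 ± 1.26 against 6.17 ± 1.01 CPM). Their summed level was 9.09 to 23.1 CPM in the aggregates and 470.9 to 592.6 CPM in the Boyden chamber. In bulk RNA, fewer cells of a type and less RNA per cell cannot be told apart.

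Markers of other cells were low, and those named here were chosen after their values were seen. Epcam, an epithelial surface protein, had 0 counts in the aggregates and 1 count in the Boyden chamber, and 15 carcinoma markers summed to 10.9 to 18.5 and 17.9 to 31.01 CPM. Of the 5 carcinoma markers tested, 0 were higher and 1 was lower, the keratin gene Krt7. It had 3 counts in the aggregates and 302 in the Boyden chamber. The macrophage markers Adgre1 and Tyrobp had 0 counts in both formats, while Cd68, a lysosomal protein that fibroblasts also make, was higher in the aggregates (40.7 ± 4.53 against 12.3 ± 1.07 CPM). Lyz2, of the same list, had 0 counts in the aggregates and 88 in the Boyden chamber. That list of 12 summed to 43.6 to 71.4 CPM and 25.9 to 30.3 CPM, and of its 5 members tested 1 was higher and 1 lower. Endothelial markers summed to 66.9 to 107.2 and 94.8 to 109.8 CPM, most of it Flt1, with Cldn5, Emcn and Tie1 at 0 counts. Kdr, the VEGF receptor of endothelial cells, had 2 counts in all in the aggregates and 14.1, 18.9, 20.1, 15.5 and 17.5 CPM in the Boyden chamber (557 counts in all), a ratio of 15.3 (95% exact Poisson interval, 4.23 to 126), and was called lower (adjusted p = 2.45e-06). Mural cell markers summed to 683.9 to 738.7 CPM and 232.2 to 273.6 CPM, nearly all Pdgfrb, a receptor that fibroblasts share. Of the 4 tested, 3 were higher and 1 lower. Notch3 ran from 27.7 to 36.4 CPM in the aggregates and from 2.17 to 3.23 CPM in the Boyden chamber (scaled by total counts). Mcam went the other way, with 2 counts in the aggregates and 270 in the Boyden chamber. The part of such other cells in the results was not tested.

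Genes of the contractile apparatus were far lower in the aggregates. Acta2, which encodes smooth muscle actin and defines myofibroblastic CAFs (ENSMUSG00000035783.8, GRCm38 chromosome 19, 34241090 to 34255590), measured 20.04, 25.2 and 93.3 CPM in the aggregates and 5614, 4274, 4748, 4989.9 and 4820.1 CPM in the Boyden chamber. The groups were far apart, and the third aggregate replicate lay above the other two. The log2 difference was -6.73 ± 0.22 (SE, adjusted p = 2.90e-23), beside a summed fibroblast marker level of the same size in both formats. Tagln, the actin-binding protein SM22, measured 28.6, 12.6 and 16.97 CPM against 959, 641, 727, 804 and 777 CPM, with a log2 difference of -5.26 ± 0.20 (SE, adjusted p = 2.12e-21). Its exons overlap another gene on the other strand and 53.8% of its 31-base words occur in other genes, so its count is less certain. Cnn1, calponin of smooth muscle, had 1, 1 and 0 counts in the aggregates and 77.6, 67.4, 71.9, 75.5 and 64.3 CPM in the Boyden chamber, a ratio of 62.8 (95% exact Poisson interval, 17.4 to 519). Lmod1, which nucleates actin filaments in smooth muscle, was likewise at 2 counts in all in the aggregates and 29.8 ± 3.12 CPM in the Boyden chamber, a ratio of 26.2 (95% exact Poisson interval, 7.26 to 216).

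In the whole list of contractile and SRF target genes, 24 of 28 were lower, against 37.5% of all genes, and 2 were higher. The median log2 difference was -1.46. The smooth muscle genes above stood lowest, and the actins and myosins that all cells make differed less, such as Actb (log2 difference -0.92 ± 0.10) and Myh9 (log2 difference -0.79 ± 0.10), 2 genes chosen after their values were seen. Srf itself, the transcription factor of the list, was higher (log2 difference 1.01 ± 0.17), as was vinculin, Vcl (log2 difference 0.78 ± 0.11), both named after their values were seen. With the length and GC trends taken out, 25 of the 28 were lower, and in the restricted genes 17 of 19.

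YAP targets followed in part. Of 22 tested, 14 were lower and 3 higher, with a median log2 difference of -0.97. Ankrd1, an ankyrin repeat gene that responds to YAP and stretch, measured 25.8, 8.42 and 3.39 CPM in the aggregates and 520.5, 639, 598, 572 and 593 CPM in the Boyden chamber. All aggregate values were below all Boyden values, with the first replicate the highest of its group. The log2 difference was -5.43 ± 0.22 (SE, adjusted p = 9.94e-21). Ctgf, a connective tissue growth factor and a standard YAP target, did not pass the test (8.59, 8.42 and 11.9 against 12.8, 16.1, 17.9, 19.1 and 12.6 CPM, log2 difference -0.71 ± 0.36, adjusted p = 0.0839), though its values did not overlap. Without a filter on low counts it was called (adjusted p = 0.0365). Crim1, a membrane protein of the list, was lower (log2 difference -1.66 ± 0.15), and Fjx1, a secreted kinase-like protein, was higher (log2 difference 2.23 ± 0.54).

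Genes of the cell cycle were far lower in the aggregates. Of 48 tested, 47 were lower and 1 was higher, E2f1 (log2 difference 0.64 ± 0.24), named after its value was seen. The median log2 difference was -4.87 (-4.76 with genes at 0 set to their bound), against -0.25 for all genes, and 4 of the 48 had no count in any aggregate replicate. Mki67, whose protein marks cycling cells, measured 20.04, 37.9 and 22.1 CPM in the aggregates and 641, 615, 619, 609.9 and 546 CPM in the Boyden chamber. The lowest Boyden value was over 10 times the highest aggregate value. The log2 difference was -4.56 ± 0.17 (SE, adjusted p = 7.82e-22).

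The 4 genes of the list with no aggregate count were Bub1, Kif23, Aurkb and Ccnb1, all of which act in mitosis. Bub1, a kinase of the spindle checkpoint (GRCm38 chromosome 2, 127801122 to 127831865), had 46.02, 56.8, 58.4, 48.8 and 52.8 CPM in the Boyden chamber, so it was at least 31.01-fold lower in the aggregates. Kif23, a motor of cell division, had 56.7, 54.6, 56.9, 49.8 and 46.03 CPM, at least 30.99-fold. Aurkb, the Aurora kinase of the chromosomal passenger complex, had 54.4, 35.4, 46.9, 44.3 and 39.1 CPM, at least 25.8-fold. These bounds are set by the aggregate depth, at which 3 counts over the group are worth 1.70 CPM. Ccnb1, cyclin B1, had 48.97 ± 5.30 CPM, at least 28.6-fold, but 46.9% of its 31-base words occur in other genes. In the restricted genes 22 of 23 cell cycle genes were lower, and with the length and GC trends taken out 46 of 48. Aggregates with control-shRNA 344SQ cells, set against 344SQ Boyden replicates as described below, differed from this in part. There Kif23 (log2 difference -0.27 ± 0.73) and Aurkb (-1.17 ± 0.60) were not called, while Bub1 (-3.89 ± 0.34) and Ccnb1 (-4.90 ± 0.51) were lower.

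The promoters of Kif23, Bub1 and Ccnb1 are shown, and that of Aurkb is not. The genes were low together and are known for CCAAT boxes, the binding sites of NF-Y. Each sequence comes from the 250 bases before the start that RefSeq annotates on GRCm38.p6, on the strand of the gene, 5′ to 3′, without the bases that lie inside the gene as GENCODE M21 gives it (6 for Bub1 and 84 for Ccnb1), and with each CCAAT or its reverse complement ATTGG in capitals.
Kif23 (chr9:61946800-61947049, minus strand): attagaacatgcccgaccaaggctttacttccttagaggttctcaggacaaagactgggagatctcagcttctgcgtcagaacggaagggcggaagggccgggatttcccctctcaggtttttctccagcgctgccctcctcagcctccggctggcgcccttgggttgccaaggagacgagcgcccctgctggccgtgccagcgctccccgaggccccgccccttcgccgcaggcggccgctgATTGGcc
Bub1 (chr2:127831866-127832109, minus strand): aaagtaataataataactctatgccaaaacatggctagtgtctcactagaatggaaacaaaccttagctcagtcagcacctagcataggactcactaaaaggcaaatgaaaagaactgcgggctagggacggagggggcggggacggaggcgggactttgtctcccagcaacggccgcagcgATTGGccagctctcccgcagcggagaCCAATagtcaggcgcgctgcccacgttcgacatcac
Ccnb1 (chr13:100786571-100786736, minus strand): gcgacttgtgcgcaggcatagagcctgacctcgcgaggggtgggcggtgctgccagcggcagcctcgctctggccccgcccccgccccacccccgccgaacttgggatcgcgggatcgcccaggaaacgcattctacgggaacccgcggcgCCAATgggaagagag
Of the 48 cell cycle genes, 38 were matched by symbol to 41 promoters, and 31 of these (75.6%) held CCAAT or ATTGG within the 250 bases. Among all 32851 promoters of the same length the share was 33.8%. The element TTTGAA or TTCAAA, part of the cell cycle homology region, was in 9 of the 41 (22.0%) and in 16.0% of all promoters. These matches describe the letters only, and all promoters include those of genes not tested here.

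Inhibitors of the cell cycle were split. Cdkn2a, whose products p16 and p19 restrain cyclin-dependent kinases and p53 breakdown, measured 215, 128 and 166 CPM in the aggregates and 19.6, 17.1, 19.8, 18.95 and 17.5 CPM in the Boyden chamber. The groups did not overlap, and the log2 difference was 3.21 ± 0.15 (SE, adjusted p = 3.74e-19). Btg1, an antiproliferative gene, was higher (log2 difference 1.51 ± 0.13), while Cdkn2b, the neighbour of Cdkn2a that encodes p15, was lower (log2 difference -2.34 ± 0.34), as was Rbl1, a relative of the retinoblastoma protein (log2 difference -2.03 ± 0.36). Of 12 inhibitors tested, 4 were higher and 4 lower (33.3% each, beside 28.1% and 37.5% of all genes). Among 20 p53 targets, 8 were higher and 4 lower, with a median of 0.31. Cdkn1a, the p53 target p21, had 407 ± 19.1 against 152 ± 14.7 CPM (log2 difference 1.42 ± 0.10), and Phlda3, a brake on Akt, 80.6 ± 2.19 against 11.5 ± 2.63 CPM (log2 difference 2.82 ± 0.20).

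**Figure D3:**
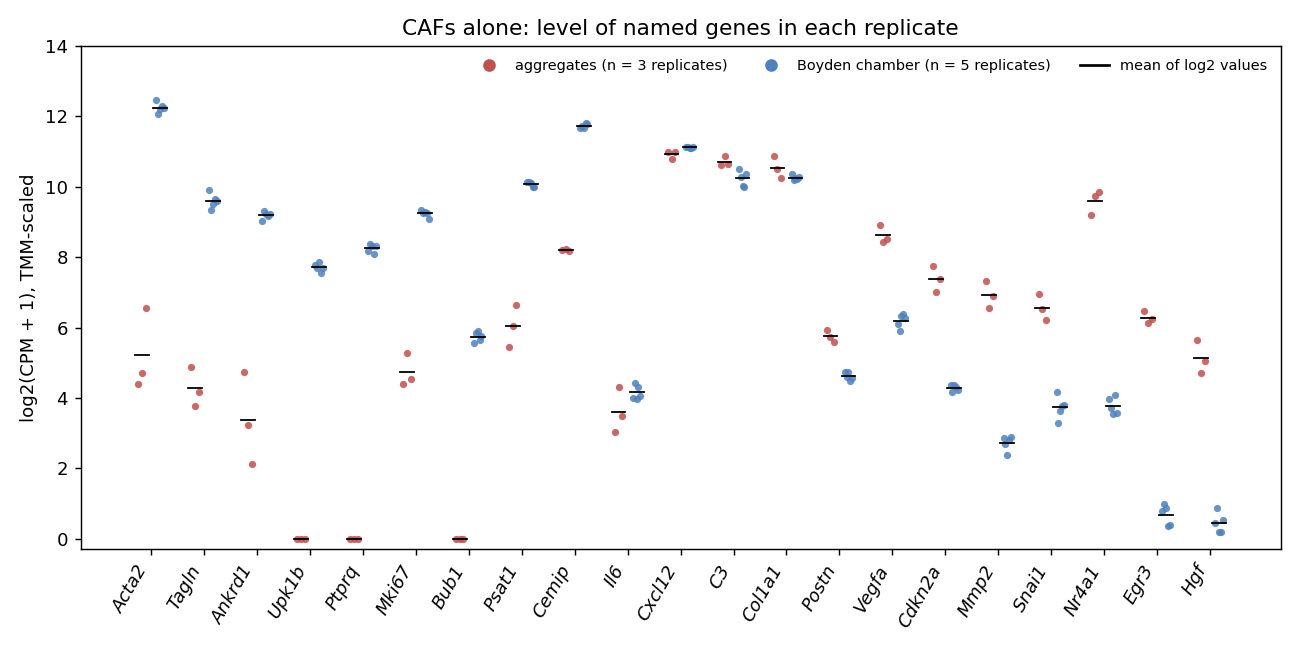
Level of 21 named genes in each replicate of CAFs alone, as log2(CPM + 1) on the vertical axis, with 3 aggregate replicates in red, 5 Boyden replicates in blue and the mean of the log2 values as a line. Acta2, Mki67 and Cemip stand lower in every aggregate replicate, Vegfa, Nr4a1 and Egr3 higher in every one, and Il6 and Col1a1 overlap.

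Immediate early genes were higher in the aggregates. Of 29 tested, 27 were higher, against 28.1% of all genes, 1 was lower and Dusp4, named after its value was seen, was not called. The median log2 difference was 1.63. Nr4a1, an orphan nuclear receptor (ENSMUSG00000023034.6, GRCm38 chromosome 15, 101254269 to 101274795), measured 582, 849.98 and 925 CPM in the aggregates and 14.8, 12.1, 10.6, 15.97 and 10.8 CPM in the Boyden chamber. Its relative Nr4a3 measured 42.9, 58.9 and 57.7 CPM against 1.25, 0.984, 1.55, 1.49 and 0.9 CPM. Egr3, a zinc finger factor of the early growth response family, measured 87.3, 69.4 and 74.7 CPM against 0.713, 0.984, 0.848, 0.298 and 0.3 CPM. The groups did not overlap in any of these 3 genes, and the log2 differences were 5.93 ± 0.14 (SE, adjusted p = 6.76e-28), 5.37 ± 0.30 (SE, adjusted p = 4.78e-17) and 6.90 ± 0.30 (SE, adjusted p = 5.51e-20). Egr2, of the same family, had 83.5 ± 18.8 against 5.003 ± 1.78 CPM (log2 difference 4.03 ± 0.24).

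Fos, the classic member, was higher by less, at 448, 530.2 and 607 CPM against 81.2, 85.3, 86.6, 100.1 and 85.8 CPM, with a log2 difference of 2.58 ± 0.10 (SE, adjusted p = 6.80e-21). It was chosen after its values were seen. Maff, a small Maf factor, was the 1 member that was lower (log2 difference -0.69 ± 0.26), and was named after its value was seen. The list's count was the same, 27 of 29, with the length and GC trends taken out, and 19 of 21 in the restricted genes. The labels do not give the time from taking the cells out of culture to lysis in either format.

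Promoters of Fos and Nr4a3 are shown for the half-site of the cAMP response element, TGACG, and its reverse complement CGTCA, in capitals. The sequences are taken in the same way, and 152 bases of that of Nr4a3 are left out because they lie inside the gene.
Fos (chr12:85473640-85473889, plus strand): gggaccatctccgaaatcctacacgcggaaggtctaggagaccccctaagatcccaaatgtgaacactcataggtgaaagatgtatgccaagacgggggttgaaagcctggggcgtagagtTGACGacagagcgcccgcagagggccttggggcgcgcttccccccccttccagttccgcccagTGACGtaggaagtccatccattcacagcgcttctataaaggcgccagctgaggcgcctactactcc
Nr4a3 (chr4:48045055-48045152, plus strand): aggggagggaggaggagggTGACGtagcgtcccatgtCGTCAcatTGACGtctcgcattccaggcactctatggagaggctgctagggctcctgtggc
Of the 29 immediate early genes, 22 were matched to 31 promoters, of which 21 (67.7%) held the half-site, against 17.8% of all promoters. In the cell cycle promoters the share was 22.0%. For CCAAT or ATTGG the immediate early promoters had 32.3%, close to the 33.8% of all promoters. These shares, too, describe the letters only. All promoters include those of genes not tested here, and a gene with several promoters counts more than once.

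Extracellular matrix genes moved in both directions. Of 30 collagen genes tested, 16 were higher and 10 lower, with a median log2 difference of 0.68. The median GC content of the list was 55.9%, against 48.9% for all genes, and with the length and GC trends taken out the count was 13 higher and 12 lower and the median -0.10. Col1a1, the main chain of fibrillar collagen I, measured 1863, 1441 and 1218 CPM in the aggregates and 1310.4, 1160.4, 1224, 1196 and 1245 CPM in the Boyden chamber. The groups overlapped. The log2 difference was 0.30 ± 0.10 (SE, adjusted p = 0.0114), it fell short of the threshold without aggregate replicate 1 (0.08, adjusted p = 0.481), and it was -0.70 with the length and GC trends taken out. Col15a1, a basement membrane zone collagen, was higher, at 65.8, 118 and 105 CPM against 1.07, 2.79, 1.98, 3.13 and 2.40 CPM (log2 difference 5.34 ± 0.26). Col8a1, a short-chain collagen of vessels and cornea, was lower, at 14.3, 21.04 and 16.97 CPM against 419.7, 506, 456, 437 and 444 CPM (log2 difference -4.73 ± 0.18). Col11a1, a minor fibrillar chain and a marker of some CAFs, had 0 counts in the aggregates and 16.8 ± 2.85 CPM in the Boyden chamber, at least 9.91-fold lower. Col6a1, a chain of microfibrillar collagen VI, was higher (log2 difference 1.60 ± 0.09).

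Among 24 genes that process collagen, 9 (37.5%) were higher and 10 (41.7%) lower, beside 28.1% and 37.5% of all genes. Lox, the enzyme that crosslinks collagen and elastin, measured 212, 86.3 and 124 CPM in the aggregates and 1353, 1849, 1664, 1409 and 1718 CPM in the Boyden chamber, a log2 difference of -3.46 ± 0.17 (SE, adjusted p = 1.09e-18). All aggregate values were below all Boyden values. Crtap, a part of the collagen prolyl 3-hydroxylase complex, was also lower (log2 difference -2.33 ± 0.15).

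Of 35 other matrix glycoproteins and proteoglycans, 16 were higher and 10 lower, with a median of 0.27. Postn, periostin, which binds integrins and collagen, measured 60.1, 52.6 and 47.5 CPM against 25.5, 22.96, 25.9, 21.3 and 22.9 CPM, and its groups did not overlap (log2 difference 1.18 ± 0.19, adjusted p = 1.55e-06). Tgfbi, a secreted protein induced by TGF-beta, measured 119, 90.5 and 22.1 CPM against 2.68, 1.64, 2.12, 1.34 and 1.95 CPM, with the third aggregate replicate the lowest of its group (log2 difference 5.31 ± 0.34). Tnxb, tenascin X, was higher (log2 difference 4.54 ± 0.18). Igfbp7, a binding protein for insulin-like growth factors, measured 45.8, 71.5 and 71.3 CPM against 1465, 1461, 1300.2, 1307 and 1245 CPM (log2 difference -4.46 ± 0.15, adjusted p = 2.90e-23), and Fmod, fibromodulin, was also lower (log2 difference -4.60 ± 0.37).

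Proteases and their inhibitors were more often higher, 14 of 29 (48.3%, against 28.1% of all genes), with 8 lower and a median of 0.40. In the restricted genes 9 of 21 were higher (42.9%, against 31.2% of all) and 6 lower, with a median of 0.08. With the length and GC trends taken out, 17 of the 29 were higher and 7 lower. Mmp2, the gelatinase A of fibroblasts, measured 159, 92.6 and 119 CPM in the aggregates and 6.24, 5.41, 4.24, 5.97 and 6.45 CPM in the Boyden chamber. Every aggregate value was over 10 times every Boyden value, and the log2 difference was 4.47 ± 0.20 (SE, adjusted p = 9.28e-20). Serpine2, an inhibitor of thrombin and urokinase, measured 51.5, 31.6 and 37.3 CPM against 1.25, 1.80, 1.13, 0.746 and 1.35 CPM (log2 difference 5.01 ± 0.33). Adamts4, an aggrecanase, was higher (log2 difference 4.10 ± 0.42), and Adamts15 was higher but ran from 5.09 to 63.0 CPM within the aggregates.

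Genes that make, bind or break down hyaluronan, a matrix sugar chain, moved in both directions. Cemip, which binds hyaluronan and is needed for its breakdown by fibroblasts, measured 293, 301 and 287 CPM in the aggregates and 3241, 3409, 3224, 3586 and 3524 CPM in the Boyden chamber. The 3 aggregate values were close to each other, and the log2 difference was -3.53 ± 0.11 (SE, adjusted p = 1.18e-23). Has2, a hyaluronan synthase, measured 102, 88.4 and 110.3 CPM against 14.98, 18.4, 15.7, 15.1 and 17.2 CPM (log2 difference 2.63 ± 0.16, adjusted p = 1.22e-15), and Tnfaip6, which modifies hyaluronan, 41.5, 35.8 and 20.4 CPM against 0.535, 1.31, 1.84, 1.49 and 2.25 CPM (log2 difference 4.41 ± 0.37). Of 10 genes tested, 5 were higher and 2 lower. The second lower gene, Hmmr, is also a mitotic gene (1.83 ± 1.71 against 46.01 ± 3.72 CPM).

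Transcription factors of mesenchymal cells were mostly higher, 10 of 16, with 1 lower and a median of 0.84. Snai1, a repressor of epithelial genes, measured 123, 90.5 and 72.96 CPM in the aggregates and 16.9, 8.86, 11.3, 12.7 and 12.9 CPM in the Boyden chamber. The groups did not overlap (log2 difference 2.95 ± 0.20, adjusted p = 1.78e-14). Runx2, known from bone (log2 difference 1.49 ± 0.13), and Tbx5, known from heart and lung mesenchyme (log2 difference 1.57 ± 0.18), were higher too, and Foxs1, a forkhead factor of pericytes, was lower, with 2 counts in all in the aggregates against 7.87 ± 1.37 CPM, a ratio of 6.86 (95% exact Poisson interval, 1.90 to 56.6).

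Wnt pathway genes were higher in 12 of 22 and lower in 5, with a median of 0.69. Axin2, a feedback inhibitor and direct target of the pathway, measured 21.5, 12.6 and 35.6 CPM against 1.07, 1.31, 0.141, 1.04 and 1.20 CPM (log2 difference 4.62 ± 0.45), and Nkd2, another antagonist, 31.5, 25.2 and 32.2 CPM against 5.17, 2.46, 2.68, 2.98 and 2.10 CPM (log2 difference 3.29 ± 0.33). Lef1, a transcription factor of the pathway, was low in both formats and higher in the aggregates (7.90 ± 4.28 against 0.43 ± 0.371 CPM). Wisp2, a CCN family protein, went against them, at 25.8, 16.8 and 8.48 CPM against 210.3, 145, 155, 171 and 178 CPM (log2 difference -3.29 ± 0.23, adjusted p = 3.58e-14). Of 9 Notch genes tested, 5 were higher and 3 lower. The receptor gene Notch1 had 133 ± 43.4 against 4.93 ± 1.84 CPM (log2 difference 4.72 ± 0.23) and overlaps a gene on the other strand, and Hey2, a Notch target, had 0 counts in the aggregates and 9.09 ± 1.49 CPM in the Boyden chamber, at least 5.34-fold lower.

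TGF-beta pathway genes were higher in 12 of 22 and lower in 6, with a median of 0.51. Taking out the length and GC trends gave 9 and 9. Nox4, an oxidase that TGF-beta induces in myofibroblasts, was lower (2.86, 2.10 and 5.09 against 17.7, 21.5, 23.5, 21.04 and 21.6 CPM, log2 difference -2.62 ± 0.43). The ligand gene Tgfb2 (log2 difference -2.05 ± 0.18) and Ltbp1, which holds latent TGF-beta in the matrix (log2 difference -1.87 ± 0.10), were lower as well.

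Secreted factors went in both directions, with 12 of 34 chemokine and growth factor genes higher and 14 lower and a median of -0.36. With the length and GC trends taken out, 14 were higher and 11 lower and the median was 0.33. Hgf, hepatocyte growth factor, measured 48.7, 25.2 and 32.2 CPM in the aggregates and 0.357, 0.82, 0.141, 0.149 and 0.45 CPM in the Boyden chamber. All Boyden values were below 1 CPM, and the log2 difference was 6.49 ± 0.42 (SE, adjusted p = 2.93e-15). Ccl8, a monocyte chemokine, had 18.7 ± 9.50 against 0.443 ± 0.187 CPM (log2 difference 5.40 ± 0.49), and Ptn, pleiotrophin, 19.1 ± 10.99 against 0.861 ± 0.428 CPM (log2 difference 4.53 ± 0.46). Pdgfa, a ligand of the receptor that Pdgfra encodes, was lower, at 8.59, 10.5 and 5.09 CPM against 113, 113, 95.1, 81.03 and 82.6 CPM (log2 difference -3.60 ± 0.30, adjusted p = 1.39e-12).

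Genes that define inflammatory CAFs moved in both directions. Of 20 tested, 6 (30%) were higher and 5 (25%) lower, against 28.1% and 37.5% of all genes, and the median was -0.09. With at least 2-fold, 5 were higher, such as Cd34 (log2 difference 2.23), and 4 lower, such as Saa3, given below. Il6, the cytokine that names the state, measured 7.16, 18.9 and 10.2 CPM in the aggregates and 14.98, 20.7, 14.8, 18.8 and 15.6 CPM in the Boyden chamber, and the groups overlapped. The log2 difference was -0.57 ± 0.34 (SE, adjusted p = 0.14), and of the replicates left out in turn only aggregate replicate 2 moved it past the threshold (-1.01, adjusted p = 0.0347). It was 0.45 once the length and GC trends were taken out. Cxcl12, the ligand of the receptor CXCR4, measured 2016, 1763 and 2031 CPM against 2250.04, 2239.9, 2177, 2206 and 2225 CPM. Its values did not overlap, but the difference was small and did not pass (log2 difference -0.20 ± 0.09, adjusted p = 0.0557). It was called lower without aggregate replicate 1 (-0.26, adjusted p = 0.0151) or 3 (-0.23, adjusted p = 0.0381), by DESeq2 (adjusted p = 0.00495), by limma-voom (adjusted p = 0.0239), without a filter on low counts (-0.37, adjusted p = 0.000253) and with the length and GC trends taken out (-0.24, adjusted p = 0.0165). With upper-quartile scaling it was 0.0073. C3, the central complement protein, measured 1577, 1868 and 1597 CPM against 1443, 1241, 1039.8, 1025 and 1328 CPM (log2 difference 0.47 ± 0.10, adjusted p = 2.53e-04). Its call was lost with the length and GC trends taken out (0.21, adjusted p = 0.0766). Saa3, an acute phase protein, was lower and varied within the aggregates (0, 18.9 and 3.39 against 62.1, 71.3, 53.6, 52.5 and 87.9 CPM, log2 difference -3.38 ± 0.43). With the length and GC trends taken out, the list had 10 higher and 4 lower and a median of 0.51.

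Hypoxia response genes were higher in 14 of 29 and lower in 8, with a median of 0.60. Vegfa, the vascular endothelial growth factor, measured 485, 347 and 368 CPM in the aggregates and 68.3, 58.4, 78.99, 81.9 and 76.8 CPM in the Boyden chamber. The groups did not overlap, with a log2 difference of 2.47 ± 0.12 (SE, adjusted p = 9.19e-19). Stc1, a secreted glycoprotein, measured 64.4, 114 and 96.7 CPM against 9.45, 6.40, 9.89, 9.10 and 11.2 CPM (log2 difference 3.27 ± 0.21). Egln3, a prolyl hydroxylase that acts on HIF (log2 difference 3.04 ± 0.32), and Kdm4b, a histone demethylase (log2 difference 3.26 ± 0.23), were also higher, all with values that did not overlap. Among those that were lower was Adm, adrenomedullin (log2 difference -2.17 ± 0.32), which was chosen after its values were seen.

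Genes of cytosolic ribosomal proteins and nuclear genes of oxidative phosphorylation were lower. Of 83 cytosolic ribosomal protein genes 79 were lower and 0 higher, with a median of -2.77, and of 88 nuclear genes of oxidative phosphorylation 79 were lower and 1 higher, with a median of -2.32. Rps23, a protein of the small subunit, measured 10.02, 6.31 and 5.09 CPM against 777, 812, 797, 750.2 and 751 CPM (log2 difference -6.72 ± 0.20), and Ndufa4, a subunit of the respiratory chain, 7.16, 12.6 and 10.2 CPM against 552, 568, 547, 479 and 501 CPM (log2 difference -5.77 ± 0.20, adjusted p = 1.24e-22). These genes are short, and most ribosomal protein genes share words with other genes, so that 3 of the 83 were in the restricted set. With the length and GC trends taken out, 72 ribosomal protein genes and 57 genes of oxidative phosphorylation were lower, with medians of -1.97 and -1.60. The mitochondrially encoded genes, which were left out of the fit, took the larger share of counts in the aggregates, as given above.

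The amino acid response that ATF4 drives was lower in 23 of 29 genes and higher in 2, with a median of -1.27. Psat1, which makes the precursor of serine, measured 42.9, 65.2 and 98.4 CPM in the aggregates and 1124, 1123, 1102, 1016 and 1028 CPM in the Boyden chamber. The groups were far apart, with a log2 difference of -3.99 ± 0.15 (SE, adjusted p = 3.02e-21). Psph, the enzyme of the last step of serine synthesis, measured 8.59, 10.5 and 13.6 CPM against 223, 236, 217, 215 and 203 CPM (log2 difference -4.34 ± 0.21), and Chac1, which breaks down glutathione, 15.7, 6.31 and 3.39 CPM against 87.6, 66.4, 78.6, 98.04 and 82.6 CPM (log2 difference -3.19 ± 0.30). Ddit4, an inhibitor of mTORC1 that stress induces, was higher, at 94.5, 88.4 and 67.9 CPM against 8.92, 7.38, 9.47, 7.16 and 7.95 CPM (log2 difference 3.35 ± 0.20, adjusted p = 2.52e-16). The count lower was 24 of 29 once both trends were taken out.

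Cholesterol synthesis genes were lower in 16 of 25 and higher in 1, with a median of -1.18. Hmgcs1, which makes HMG-CoA, measured 45.8, 25.2 and 37.3 CPM against 79.2, 91.2, 83.5, 71.9 and 87.4 CPM (log2 difference -1.15 ± 0.19, adjusted p = 2.23e-06). Msmo1, a sterol oxidase, measured 11.4, 10.5 and 20.4 CPM against 91.1, 106, 101, 107 and 103 CPM (log2 difference -2.84 ± 0.22). Heat shock genes were lower in 14 of 20 and higher in 3, with a median of -0.78. In the restricted genes 4 of 9 were lower (44.4%, against 35.9% of all) and 1 higher, with a median of -0.37. With the length and GC trends taken out, 12 of the 20 were lower. Hsp90aa1, an inducible chaperone, had 166 ± 48.5 against 2035 ± 169 CPM (log2 difference -3.62 ± 0.14), though 62.9% of its words occur in other genes. Genes of the unfolded protein response were lower in 11 of 19 and higher in 4, with a median of -0.65, and 8 of 19 were lower with the length and GC trends taken out.

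Lysosome and autophagy genes were higher in 18 of 34 and lower in 7, with a median of 0.51. Ctsd, the protease cathepsin D, measured 1179, 1523 and 1732 CPM in the aggregates and 156, 127, 142, 167 and 169 CPM in the Boyden chamber (log2 difference 3.27 ± 0.11, adjusted p = 2.90e-23). The groups did not overlap, although 37.1% of the gene's words occur elsewhere. Psap, the precursor of the saposins, had no shared words and measured 2155, 1706 and 1924 CPM against 572, 484, 544, 560.1 and 550.5 CPM (log2 difference 1.83 ± 0.09). Tfeb, a transcription factor of lysosomal genes, was low in both formats and higher in the aggregates (11.4 ± 4.95 against 1.49 ± 0.518 CPM).

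Interferon response genes were lower in 10 of 24 and higher in 1, with a median of -1.28. The share lower, 41.7%, was near the 37.5% of all genes. These calls rest on few counts. Ifi44 had 0 counts in the aggregates and 7.13, 6.23, 5.65, 47.2 and 5.70 CPM in the Boyden chamber, where the fourth replicate stood far above the others. Its call (adjusted p = 0.026) was lost without aggregate replicate 1, 2 or 3 (adjusted p = 0.0985, 0.0786 and 0.091) and with the length and GC trends taken out (adjusted p = 0.0735). Taking out both trends, 4 of the 24 were lower (16.7%, against 26.4% of all genes) and 3 higher. Parp14, an interferon-induced ADP-ribosyltransferase, was the gene that was higher (58.4 ± 17.96 against 4.80 ± 1.59 CPM).

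**Figure D4:**
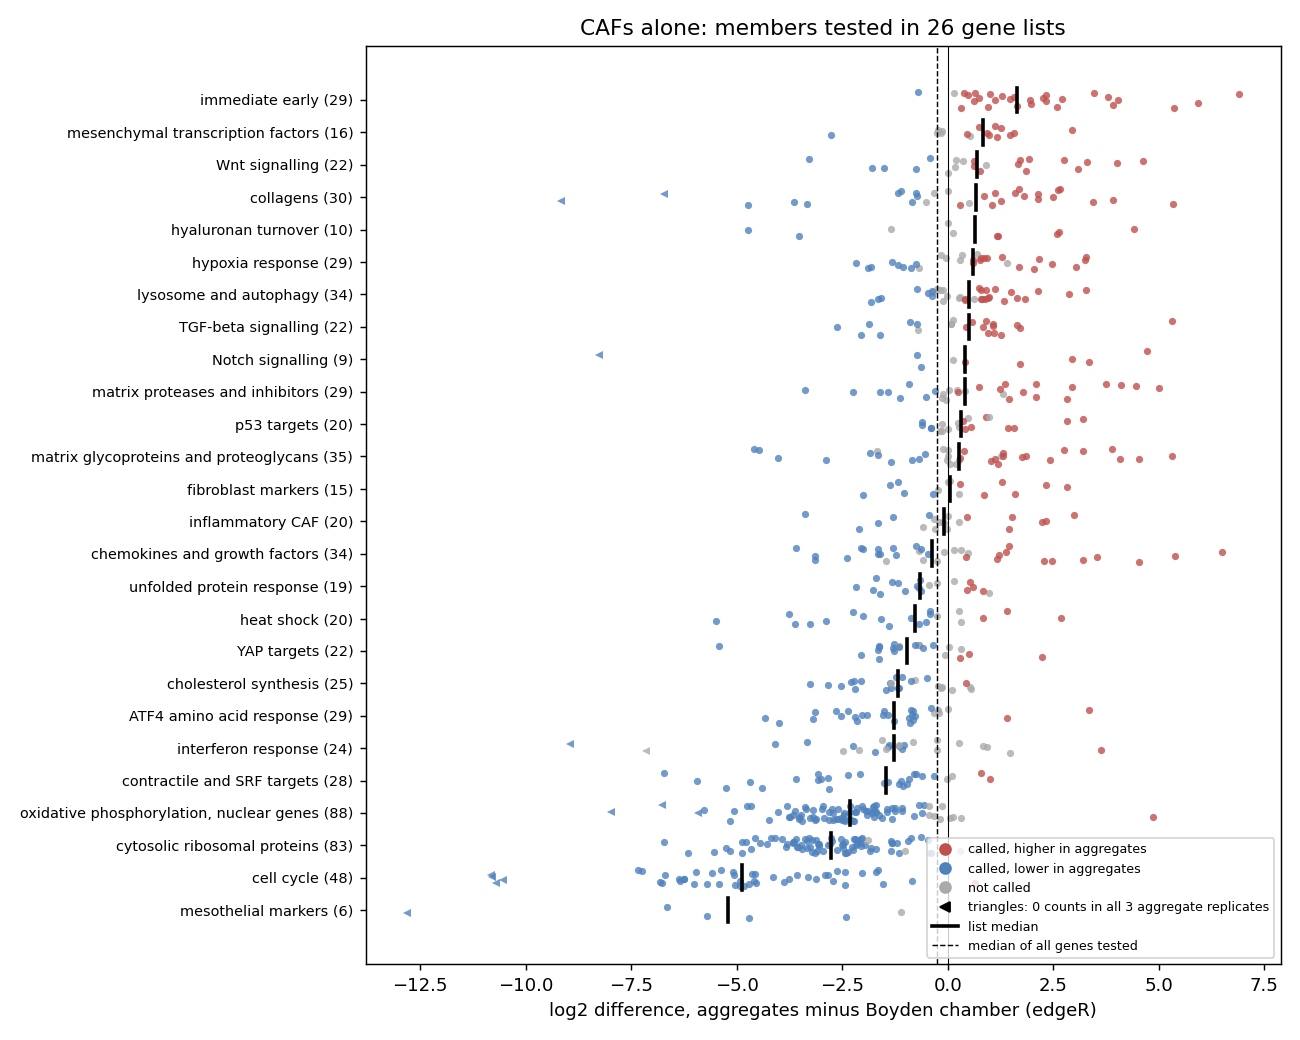
Log2 difference between aggregates and Boyden chamber (horizontal axis, from edgeR) of the tested members of 26 gene lists (rows, with the number tested), in red where called higher, blue where called lower and grey where not called. The bars are list medians, from -5.20 for mesothelial markers and -4.87 for the cell cycle to 1.63 for immediate early genes, the dashed line is the median of all genes (-0.25), and triangles are genes with 0 aggregate counts, whose fitted value is no bound.

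Genes were also named by their fitted log2 difference, among those with at least 20 CPM in the higher format. The 12 with the lowest fitted value all had 0 counts in the aggregates. Such a value is no bound, so these genes are not ranked against measured ones such as Acta2, Rps23 and Lrrn4. Ptprq, a receptor-type phosphatase known from hair cells and kidney (ENSMUSG00000035916.7, GRCm38 chromosome 10, 107517049 to 107720051), measured 286, 331, 317, 271 and 319 CPM in the Boyden chamber, so it was at least 179-fold lower in the aggregates. Gpm6a, a membrane glycoprotein known from neurons, measured 181, 199, 166, 155 and 208 CPM, at least 106-fold. Scel, sciellin of stratified epithelia, had 71.1 ± 4.97 CPM (at least 41.8-fold) and Vat1l 72.96 ± 5.15 CPM (at least 42.8-fold). Beside Upk1b, 4 of the 12 belong to the cell cycle list, and Ndc80, of the kinetochore, and Esco2, of sister chromatid cohesion, are also cell division genes. Fabp5, a fatty acid binding protein, shares 8.67% of its words with other genes. Of these 12 genes, 9 were among the 12 with the lowest fitted value in the restricted genes too.

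Among the 12 genes with the highest fitted value, 2 of them at 0 in the Boyden chamber, 7 overlap an exon on the other strand, against 31.7% of protein-coding genes. Ilk, integrin-linked kinase, which nearly all cells express, measured 113, 147 and 144 CPM in the aggregates and had 0 counts in all 5 Boyden replicates. Med10, a subunit of the Mediator complex that all cells need, measured 24.3, 29.5 and 22.1 CPM and likewise had 0 counts in the Boyden chamber. Both overlap an exon on the other strand, and 92.8% of the 31-base words of Ilk and 98.6% of those of Med10 occur in other genes. Differences in counting and differences between the formats cannot be told apart for such genes. The small RNA Rny1 measured 6044 ± 179 against 3.27 ± 1.48 CPM.

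Only 4 of the 12 stood among the 12 highest of the restricted genes, a list chosen after seeing the data. That list held Nptx1, neuronal pentraxin (15.7, 16.8 and 55.99 against 0.357, 0, 0.141, 0.149 and 0.15 CPM, with the third aggregate replicate the highest), Vps37d, of the ESCRT-I complex (log2 difference 6.80 ± 0.35), and A4galt, which makes globo-series glycolipids (log2 difference 6.79 ± 0.43). The rest were Egr3, Nr4a1, Nr4a3 and Hgf, given above, with Gem, a small GTPase (log2 difference 6.61 ± 0.49), Ndnf, a secreted neurotrophic factor (log2 difference 5.77 ± 0.40), Celsr1, a cadherin of planar polarity (log2 difference 5.69 ± 0.45), Bmf, a BH3-only cell death protein (log2 difference 5.63 ± 0.34), and Camk1d, a calmodulin kinase (log2 difference 5.41 ± 0.34).

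The same difference between the formats could be computed for CAFs that had been with cancer cells. The cancer cells were the lines 393P and 344SQ, both from mouse lung adenocarcinoma, cultured with the CAFs in either format, with 3 aggregate and 5 Boyden replicates each and no library in common with CAFs alone. These comparisons carry the same confounding of format and experiment. Of the 7018 genes called with at least 2-fold in CAFs alone, 6674 were tested with 393P and 97.4% of those had the same direction. With 344SQ 6492 were tested and 98.1% had the same direction. Genes called with at least 2-fold in the same direction numbered 5383 and 5170 (51.1% and 48.4% of all genes tested there were so called in either direction, and 68.8% and 65% were called at any size), and 25 and 13 were called in the opposite one. For CAFs from aggregates with control-shRNA 344SQ cells (another deposited table, set against the same 344SQ Boyden replicates), 86.9% of 6319 genes had the same direction, 3717 were called in the same one with at least 2-fold (46.3% of all genes tested there were called so, 21.6% higher and 24.6% lower, and 50.7% were called at any size, 24.1% higher and 26.6% lower) and 150 in the opposite one.

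A test of whether the difference in CAFs alone departs from its mean over both co-cultures called 1241 of 15586 genes (7.96%), 4.09% with the higher difference in CAFs alone and 3.87% with the lower. Mki67 had log2 differences of -4.56 ± 0.17 in CAFs alone, -4.60 ± 0.20 with 393P and -4.37 ± 0.22 with 344SQ. Mmp2 had 4.47 ± 0.20, 4.61 ± 0.16 and 4.52 ± 0.17, and Hgf 6.49 ± 0.42, 6.28 ± 0.44 and 6.28 ± 0.55. For these 3 genes, chosen after their values were seen, the test did not pass, with values of -0.01 ± 0.35 (SE, adjusted p = 1), -0.04 ± 0.22 (SE, adjusted p = 0.992) and 0.22 ± 0.83 (SE, adjusted p = 0.963). Acta2 had -6.73, -4.60 and -6.76, and its test gave -0.98 ± 0.40 (SE, adjusted p = 0.138). With control-shRNA 344SQ cells the log2 difference of Mki67 was -0.57 ± 0.68 (adjusted p = 0.511). The mesothelial gene Upk1b was lower there, at -2.71 ± 0.42.

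Of the 202 genes named by the rules, 51 departed, 24 with the higher difference in CAFs alone and 27 with the lower. The rules picked genes mainly by their difference in CAFs alone, a part of this test, so their share says nothing beside that of all genes. Some of the genes described above kept their direction but differed in size. Cemip had -3.53 ± 0.11, -7.12 ± 0.17 and -5.95 ± 0.19, a departure of 3.06 ± 0.17 (SE, adjusted p = 1.16e-17), Nr4a1 had 5.93 ± 0.14, 7.15 ± 0.13 and 6.56 ± 0.17, a departure of -0.86 ± 0.21 (SE, adjusted p = 0.00593), and Serpine2 had 5.01 ± 0.33, 7.32 ± 0.21 and 7.70 ± 0.28, a departure of -2.45 ± 0.47 (SE, adjusted p = 2.55e-04). Pdgfra had 2.34 ± 0.13, -0.21 ± 0.10 and 0.82 ± 0.12, a departure of 2.09 ± 0.16 (SE, adjusted p = 2.41e-13). Its mean level in the aggregates was 765 ± 304 CPM alone, 216 ± 15.6 with 393P and 465 ± 117 with 344SQ (± SD, n = 3, all groups scaled together), and in the Boyden chamber 156 ± 7.62, 266 ± 13.3 and 279 ± 9.62 CPM (n = 5).

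Cxcl12 had a log2 difference of -0.20 ± 0.09 in CAFs alone, -2.84 ± 0.12 with 393P and -2.37 ± 0.13 with 344SQ, a departure of 2.47 ± 0.12 (SE, adjusted p = 1.57e-19). Its mean aggregate level was 1905 ± 111 CPM alone, 293 ± 46.5 CPM with 393P and 345 ± 82.8 CPM with 344SQ, beside Boyden levels of 2213 ± 34.3, 2240.2 ± 125 and 1864 ± 48.3 CPM. The aggregate means thus spanned a wider range than the Boyden means. C3 had 0.47 ± 0.10, -2.55 ± 0.17 and -2.18 ± 0.14, a departure of 2.89 ± 0.18 (SE, adjusted p = 1.54e-16), with aggregate levels of 1658 ± 204, 124 ± 63.7 and 309 ± 46.9 CPM and Boyden levels of 1212 ± 184, 787 ± 63.3 and 1481 ± 161 CPM. Postn had 1.18 ± 0.19, 4.99 ± 0.11 and 1.65 ± 0.26, a departure of -2.08 ± 0.22 (SE, adjusted p = 9.73e-10) in the other direction. Its aggregate level was 606 ± 53.9 CPM with 393P, against 52.5 ± 5.38 CPM alone and 43.6 ± 11.7 CPM with 344SQ, while the Boyden means were 23.7 ± 2.07, 20.1 ± 2.60 and 14.4 ± 3.05 CPM in the order alone, 393P and 344SQ. Col1a1 departed by -0.78 ± 0.13 (SE, adjusted p = 3.18e-05) and Hmgcs1 by -0.88 ± 0.23 (SE, adjusted p = 0.011).

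**Figure D5:**
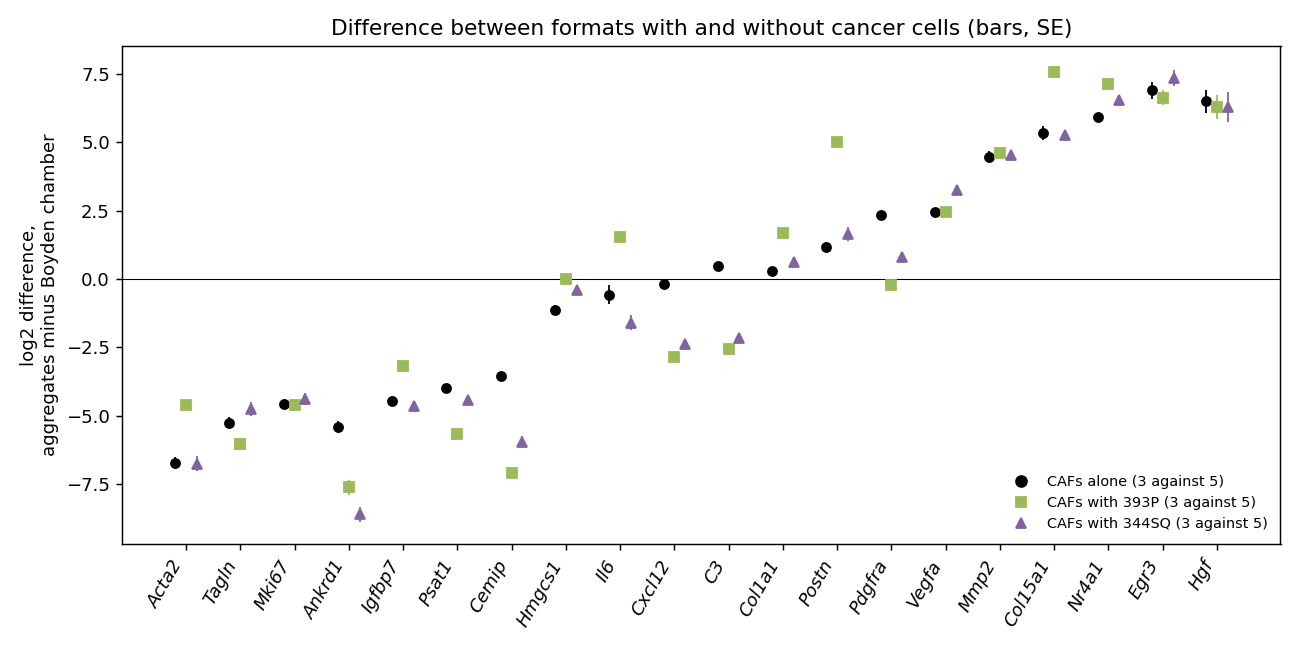
Log2 difference between aggregates and Boyden chamber (vertical axis, bars are SE) of 20 named genes in CAFs alone (black circles), CAFs with 393P (green squares) and CAFs with 344SQ (purple triangles), 3 against 5 replicates each. Mki67 stands at -4.56, -4.60 and -4.37, while Cxcl12 is near 0 in CAFs alone (-0.20) and at -2.84 and -2.37 with the cancer cells.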

How the data were processed

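The authors deposited read counts per gene, made with STAR and HTSeq on mm10 per the submitters' processing notes. For the tool versions, the strand setting and whether all tables were counted alike, the entry is "not given in the sources used here". Counts were added over the 3 technical libraries of a Boyden replicate, and the 39 mitochondrial and rRNA-like genes were left out. Genes were matched by identifier between the tables (48440 genes), and 48058 matched GENCODE M21, from which positions, GC content and lengths were taken. Low genes were removed with filterByExpr, libraries were scaled by TMM, and edgeR 4.0.16 (limma 3.58.1, R 4.3.3) tested 3 aggregate against 5 Boyden replicates by its quasi-likelihood test, 2-sided, with Benjamini-Hochberg adjustment. The step was tested on simulated data. Alternatives included DESeq2 1.42.0, limma-voom, other scalings and each replicate left out. Figures used Python 3.11.15 and matplotlib 3.10.9.

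Samples were assigned by label, but the comparison, its members and the gene lists were chosen with earlier results of these data known. Named genes were the 12 highest and 12 lowest fitted differences among genes called with at least 2-fold, without overlap and with at least 20 CPM in the higher group (leaving out ribosomal protein, histone, small noncoding and unnamed genes), up to 4 of each list with at least 5 CPM, and Acta2, Col1a1, Postn, Il6, Cxcl12, C3, Vegfa, Mki67, Ctgf and Hmgcs1. Genes outside this rule are said to be chosen after their values were seen. Counting error alone is covered by the intervals and floors, and reads without molecular identifiers are not independent molecules. The value of 1 named gene is not reported here.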

Additional observations from a re-analysis of the deposited data

Results flagged for a closer look

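In 13 of 202 named genes screened, 1 Boyden replicate stood apart from the other 4 by Dixon's criterion, which chance alone meets in about 1 of 20 groups. Replicate 4 was high for 3 interferon-related genes, with Ifi44 at 47.2 CPM (others 5.65 to 7.13), Ifit1 at 25.7 CPM (others 3.96 to 7.49) and Psme2 at 126.4 CPM (others 105.8 to 111.7). Replicate 1 was high for Bmf (1.43 CPM, others 0.656 to 0.750), Nkd2 (5.17 CPM, others 2.10 to 2.99) and Ptn (1.60 CPM, others 0.597 to 0.848), and low for Slc39a14 (53.9 CPM, others 64.8 to 67.2). Replicate 2 was high for Fmod (59.4 CPM, others 53.4 to 55.1), and replicate 3 was low for Axin2 (0.141 CPM, others 1.04 to 1.31). In Ace (0.150 CPM), Fam78a (0.357 CPM), Ugt1a1 (0.141 CPM) and Usp43 (0.299 CPM), 1 replicate held every Boyden count and the other 4 had 0.

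In 51 of the 202 named genes, the format difference in CAFs alone departed from its mean over both co-cultures by edgeR's quasi-likelihood test. The share over all genes was 7.96%. Genes were named mainly by their difference in CAFs alone, which is part of what this test compares, so these shares cannot be compared. The values below are the departure on the log2 scale and its adjusted p. The difference was higher in CAFs alone for 24 genes. They were Saa3 (4.14, 0.00471), Cd34 (3.27, 4.79e-08), Mt2 (3.21, 3.87e-13), Adamts3 (3.19, 0.0274), Cemip (3.06, 1.16e-17), C3 (2.89, 1.54e-16), Ankrd1 (2.75, 0.00154), Cxcl12 (2.47, 1.57e-19), Pdgfra (2.09, 2.41e-13), Ndnf (2.05, 0.0495), Tnfaip6 (1.66, 0.0225) and Camk1d (1.48, 0.0427), with smaller departures for Tnxb (1.38, 2.09e-04), C4b (1.35, 8.51e-04), Cd68 (1.31, 0.00633), Bmper (1.27, 4.21e-09), Slc16a3 (1.26, 0.0121), Id2 (1.23, 0.0387), Lpl (1.11, 0.0241), Psat1 (1.11, 0.00279), Mt1 (0.84, 0.025), Btg1 (0.63, 0.0156), Cdkn1a (0.60, 0.00425) and Ltbp1 (0.56, 0.00307). It was lower in CAFs alone for 27 genes, of which 26 are given. These were Foxs1 (-4.42, 8.94e-05), Axin2 (-4.07, 1.13e-05), Slc2a3 (-3.35, 0.00242), Wisp2 (-2.89, 5.20e-09), Cspg4 (-2.52, 1.62e-05), Serpine2 (-2.45, 2.55e-04), Flt1 (-2.21, 4.76e-09), Postn (-2.08, 9.73e-10), Fap (-1.75, 0.00193), Nkd2 (-1.64, 0.00421), Stc1 (-1.64, 0.00524), Notch3 (-1.59, 4.26e-04), Col8a1 (-1.57, 0.00176) and Pdgfrb (-1.44, 3.16e-11), with smaller departures for Col6a1 (-1.19, 2.50e-08), Col15a1 (-1.03, 0.0129), Prdx1 (-0.95, 0.00279), Snai1 (-0.92, 0.00648), Notch1 (-0.89, 0.0325), Manf (-0.88, 0.0203), Hmgcs1 (-0.88, 0.011), Nr4a1 (-0.86, 0.00593), Col1a1 (-0.78, 3.18e-05), Jam2 (-0.76, 0.0125), Runx2 (-0.76, 3.02e-04) and Vim (-0.46, 0.00676). Fitted values of genes at 0 in a group are no bound.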

How the results depend on the processing

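Depth limits the low genes, since 1 aggregate count is worth 1.43 to 2.10 CPM, and format and experiment cannot be told apart under any setting. Against a 2-fold difference (glmTreat), 4776 genes were called in CAFs alone, 1925 higher and 2851 lower. With the Boyden sums thinned to the median aggregate total, 6083 were called, 3051 of them lower and 2160 at least 2-fold lower. With the length and GC trends removed, 2634 were at least 2-fold lower. Over the restricted genes alone, with fewer genes tested, 4419 were called, 2056 higher and 2363 lower, and 1314 and 1635 with at least 2-fold. With both together there were 3970, 2074 higher and 1896 lower, and 1182 and 1227 with at least 2-fold. These last 3 were chosen after seeing the data. The share of called genes that were higher was 42.8%, and 53.6% with the length trend removed or 54.2% with length and GC. Whether the replicate numbers pair the formats cannot be told from these values. Correlations were small both for same-numbered samples (-0.035, -0.0198 and 0.00263) and for the others (-0.0159 to 0.0389). With a replicate block 8589 genes were called in CAFs alone, 3648 higher and 4941 lower. In the 344SQ shCTL comparison the block left 3154 genes called, 1440 higher and 1714 lower, and 1439 and 1712 with at least 2-fold. Signs turned for Col1a1 (-0.70 with length and GC trends removed, -0.72 in the restricted genes as well), Il6 (0.0061 with length, 0.45 with length and GC, 0.59 in the restricted genes as well), Cxcl12 (0.0073 with upper-quartile scaling, 0.0278 with thinning) and Flt1 (0.0351 with the third technical library alone). List medians turned for fibroblast markers (-0.13 without a filter), collagens (-0.10 with length and GC), TGF-beta signalling (-0.0073 with length and GC, -0.0089 in the restricted genes as well), chemokines and growth factors (0.11 with length, 0.33 with length and GC, 0.42 in the restricted genes as well) and the inflammatory CAF list (0.24, 0.51 and 0.63 likewise). The cause was not tested. Of 5214 values of the 202 named genes under the alternatives, 5146 kept their direction and side of the threshold, 42 lost the call and 18 gained it. With each replicate left out in turn, CAFs alone had 8515 to 9611 called genes, 3514 to 4166 higher and 4825 to 5509 lower, and 2565 to 2920 and 3768 to 4199 with at least 2-fold, and the departure from the co-cultures was called in 977 to 1230. The range was 8984 to 9552 with 393P, 7950 to 8730 with 344SQ and 5793 to 8270 with 344SQ shCTL.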
